A study of Homo sapiens with 25 samples.

Results

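The genes CHGB, CNTN4, SCN3B, SDK2 and TTLL7, best known from nerve and neuroendocrine cells, were followed in Jurkat cells, a line grown from a human T-cell leukaemia, at different supplies of histidine, which human cells cannot make and take from the medium. These 5 of the 36755 genes in the expression table were picked by symbol for their large differences from full medium, CHGB, CNTN4 and SCN3B for higher values under restriction and SDK2 and TTLL7 for lower ones. Their differences from full medium are therefore given as a description, without a test. All groups are cultures of this line, and the labels name no other agent and no genetic change. The groups are media with 100%, 50%, 25%, 12.5% or 0% histidine on day 3, and with 100%, 50%, 25% or 12.5% on day 6. There were 2 libraries at 100% on day 3 (replicates 1 and 3), 2 at 12.5% on day 6 (replicates 1 and 2) and 3 in each of the other 7 groups, 25 in all. A single cell line stands for T cells here, and nothing in the labels says that replicates were separate cultures, so a p-value here measures the spread between libraries alone, and that spread may be technical.

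CHGB encodes chromogranin B, an acidic protein of the granin family that is packed into the dense secretory granules of neuroendocrine cells. CNTN4 encodes contactin 4, a cell adhesion molecule held to the membrane by a lipid anchor, which guides axons and binds partners such as PTPRG and APP. SCN3B encodes a beta subunit of voltage-gated sodium channels, a small membrane protein with an immunoglobulin-like fold that sets how the pore-forming alpha subunit opens and reaches the surface. SDK2 encodes sidekick 2, an immunoglobulin superfamily adhesion protein that pairs with itself across synapses in the retina, and TTLL7 encodes a tubulin polyglutamylase that adds glutamate chains to the tails of beta-tubulin. Many genes of this kind are kept off outside the nervous system by the repressor REST with its corepressors, and a short supply of an amino acid is read in cells by GCN2, which senses uncharged transfer RNA.

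The 5 genes lie apart in the genome (GRCh38, GENCODE 29). CHGB (ENSG00000089199.9) spans chr20:5911430-5925361 on the plus strand, CNTN4 (ENSG00000144619.14) chr3:2098813-3057956 on the plus strand, SCN3B (ENSG00000166257.8) chr11:123629187-123655244 on the minus strand, SDK2 (ENSG00000069188.16) chr17:73334384-73644089 on the minus strand and TTLL7 (ENSG00000137941.16) chr1:83865028-83999150 on the minus strand. All 5 are protein-coding. Their longest coding transcripts have 5, 22, 6, 45 and 21 exons in that order.

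Since histidine was the nutrient withheld, the histidine codons (CAC and CAT) of each longest reading frame were counted. CHGB had 27 of 677 codons for histidine, 3.99%, which lies at the 89.3rd percentile of 19501 protein-coding genes with a median of 2.44%. The other members lay below that median: TTLL7 had 19 of 887 codons (2.14%), SDK2 39 of 2172 (1.80%), CNTN4 17 of 1026 (1.66%) and SCN3B 2 of 215 (0.93%, the 6.24th percentile). The 3 genes with higher values under restriction therefore took in the highest share and the 2 lowest shares among the members. The stretches of 30 codons with the most histidine codons in CHGB (codons 220 to 249, in exon 4 of 5, chr20:5922802-5922891, plus strand) and in CNTN4 (codons 519 to 548, in exon 12 of 22, chr3:3026170-3026259, plus strand) serve as examples, each with 4 histidine codons, in capitals.
CHGB codons: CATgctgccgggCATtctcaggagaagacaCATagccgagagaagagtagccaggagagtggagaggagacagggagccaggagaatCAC
CNTN4 codons: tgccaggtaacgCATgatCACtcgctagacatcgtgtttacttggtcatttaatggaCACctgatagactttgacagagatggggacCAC

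**Figure D1:**
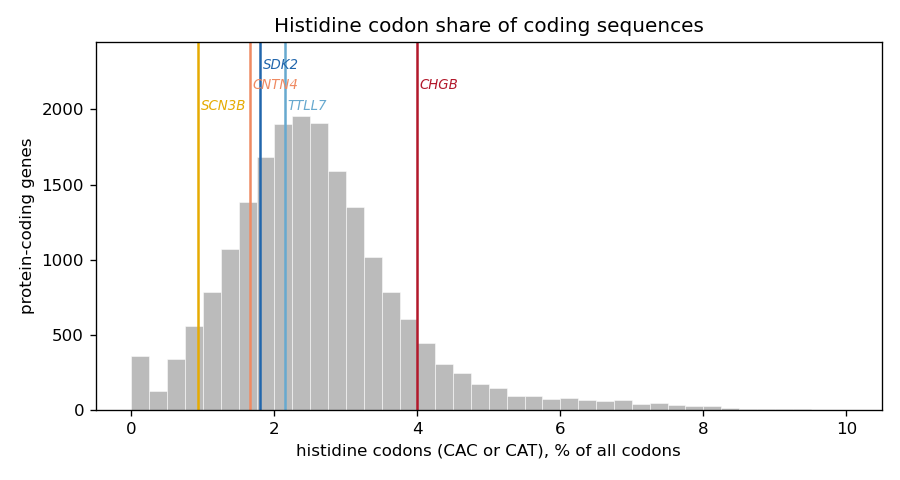
Histogram of the share of codons that are histidine codons (x axis, percent of all codons; y axis, number of protein-coding genes per bin), with a vertical line for each member. CHGB stands at 3.99%, right of the peak, and the other 4 members stand between 0.93% and 2.14%, left of the median of 2.44%; the 15 genes above 10% are not drawn.

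RefSeq promoter windows (GRCh38.p14, 250 bases before to 50 after a start) were at hand for 2 of the 5 members, TTLL7 and CNTN4, which differ in the direction of their values under restriction. The part of each window before the first annotated exon is printed, 5′ to 3′ on the gene's strand, with the matches to 8 short motifs in capitals. The printed part is chr1:83999151-83999382 (minus strand) for TTLL7 and chr3:2098616-2098812 (plus strand) for the first CNTN4 window. For the second CNTN4 window, at a start inside the gene, it is chr3:2891970-2892214 (plus strand). The full windows, to which the shares and match counts below refer, are chr1:83999083-83999382, chr3:2098616-2098915 and chr3:2891970-2892269.
TTLL7 start: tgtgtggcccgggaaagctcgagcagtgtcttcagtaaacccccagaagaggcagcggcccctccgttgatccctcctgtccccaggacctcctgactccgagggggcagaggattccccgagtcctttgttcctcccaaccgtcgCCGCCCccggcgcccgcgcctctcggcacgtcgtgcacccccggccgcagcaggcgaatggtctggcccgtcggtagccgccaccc
CNTN4 first start: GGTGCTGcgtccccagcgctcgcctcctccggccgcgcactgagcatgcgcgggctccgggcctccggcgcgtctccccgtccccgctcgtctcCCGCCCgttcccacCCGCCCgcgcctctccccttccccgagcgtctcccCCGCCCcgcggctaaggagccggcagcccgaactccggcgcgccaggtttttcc
CNTN4 second start: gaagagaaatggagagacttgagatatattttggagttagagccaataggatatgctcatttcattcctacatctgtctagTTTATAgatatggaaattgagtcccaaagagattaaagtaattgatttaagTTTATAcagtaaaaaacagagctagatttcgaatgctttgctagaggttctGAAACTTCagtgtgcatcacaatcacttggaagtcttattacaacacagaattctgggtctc

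The TTLL7 window and the first CNTN4 window were rich in G and C, 69.7% and 77.3% of the bases against a median of 58.7% over all 35116 windows, and the second CNTN4 window had 36.7%. Matches on either strand to the GC box (GGGCGG), which 45.0% of all windows hold, numbered 1 at TTLL7 and 4 at the first CNTN4 start, 3 of them in the printed part. The left half-site of the REST element (CAGCACC, in 7.75% of windows) was found once, at the first CNTN4 start. The second CNTN4 start held 2 matches to the TATA box letters (TATAAA, in 11.5% of windows) and 1 to the heat shock pair (GAANNTTC, in 6.77%). The E-box CACGTG, the cyclic AMP half-site TGACG, the C/EBP-ATF composite TGATGNAA and the right REST half-site GGACAGC were not among the letters of these 3 windows. The motifs do not overlap one another in these windows, and a match is a description of letters only.

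The values are counts per gene normalized by the authors between libraries, not per length, so levels are compared between libraries and never between genes. Library totals lay between 18444047 and 21378833 normalized counts, and 17445 to 19624 genes reached at least 10. The depth of sequencing is unknown. Replicate 2 of 25% on day 6 stands apart and held 18210 normalized counts of the heart myosin gene MYH7, where the next library held 67.5. Without that library the log2 differences from 100% at 25% on day 6 were 2.35 for CHGB, 2.74 for CNTN4, 1.28 for SCN3B, -5.27 for SDK2 and -0.76 for TTLL7. In that setting 34 rather than 40 list genes passed, beside 4020 rather than 4645 of all tested genes. All 12 T-cell markers were found in every library, CD3E, a signalling chain of the T-cell receptor, at 15440 to 30630 normalized counts. In bulk samples fewer cells of a type and less RNA per cell cannot be told apart.

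CHGB followed the histidine supply step by step. On day 3 it stood at 14.3 and 37.95 normalized counts in the 2 libraries at 100%, at 19.9, 24.2 and 15.6 at 50%, at 147, 138 and 160 at 25%, at 420, 439 and 410 at 12.5%, and at 710, 571 and 666 at 0%. From 50% down, each level was above the level before it with no overlap, while the 50% libraries lay within the range of the 100% libraries. On day 6 the values were 30.9, 31.0 and 80.1 at 100%, 94.0, 56.2 and 43.5 at 50%, 224, 230 and 218 at 25%, and 374 and 405 at 12.5%. Here too 25% was apart from 50% and 12.5% apart from 25%.

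The CHGB mean at 0% on day 3 was 649 ± 70.9 (SD, n = 3) against 26.1 ± 16.7 (n = 2) at 100%, a ratio of means of 24.8. On the log2(value + 1) scale used for every difference here, the difference from 100% on day 3 was -0.24 (SE 0.36) at 50%, 2.61 at 25%, 4.12 at 12.5% and 4.73 at 0%. Thus 55.2% of the difference seen at 0% was present at 25% and 87.1% at 12.5%. On day 6 the differences were 0.52 (SE 0.32), 2.37 and 3.16 (SE 0.36). The 2 control libraries of day 3 weigh on the size: without replicate 1 the difference at 0% was 4.05, without replicate 3 it was 5.40, and at 25% these values were 1.94 and 3.28. Ordered by mean, the 9 groups ran from 50% and 100% on day 3 through 100% and 50% on day 6, neighbours whose libraries overlap, to 25% on day 3, 25% on day 6, 12.5% on day 6, 12.5% on day 3 and 0% on day 3, each apart from the group before.

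CNTN4 was nearly absent in day 3 cells with enough histidine and reached a level that changed little from 25% down. It stood at 4.64 and 2.15 normalized counts at 100% on day 3, at 4.11, 2.62 and 0 at 50%, at 44.0, 68.2 and 67.5 at 25%, at 65.2, 98.9 and 88.3 at 12.5%, and at 63.0, 94.3 and 105.5 at 0%. The day 6 values were 21.4, 10.2 and 10.9 at 100%, 11.0, 28.0 and 6.60 at 50%, 92.1, 98.8 and 98.1 at 25%, and 89.0 and 95.5 at 12.5%. On both days the libraries at 25% or less lay above all libraries at 50% or 100%, and among themselves neighbouring levels overlapped.

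The CNTN4 mean was 87.6 ± 22.1 (SD, n = 3) at 0% against 3.40 ± 1.76 (n = 2) at 100% on day 3. The log2 differences on day 3 were -0.67 (SE 0.55), 3.82, 4.31 and 4.36 from 50% to 0%, so that 87.7% of the last value was present at 25%. On day 6 they were -0.06 (SE 0.49), 2.76 and 2.69 (SE 0.55). Since the low group sits near the pseudocount, a pseudocount of 10 gave 2.84 at 0% on day 3, 2.80 at 12.5% and 2.37 at 25%. The 5 groups at 25% or less, on either day, followed each other without a gap in the order of means (59.9 to 96.3), and the day 6 groups at 100% and 50% (14.2 and 15.2) lay between them and the day 3 groups (3.40 and 2.24).

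SCN3B had the same shape on day 3, from a low level that differed between libraries. It was listed at 22.3 and 0 normalized counts at 100%, at 0, 38.7 and 31.7 at 50%, at 192, 133 and 135 at 25%, at 138, 226 and 177 at 12.5% and at 173, 273 and 190.5 at 0%. On day 6 it stood at 85.4, 31.9 and 73.7 at 100%, 96.2, 77.9 and 73.6 at 50%, 171, 211 and 121 at 25%, and 160 and 173 at 12.5%. Libraries at 25% or less were above those at 50% and 100% on both days, with a smaller gap on day 6, where 121 at 25% faced 96.2 at 50%.

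On day 3 the SCN3B mean was 212 ± 53.1 (SD, n = 3) at 0% and 11.1 ± 15.7 (n = 2) at 100%. The log2 difference was 1.18 (SE 1.24) at 50%, 4.98 at 25%, 5.20 at 12.5% and 5.44 at 0%, with 91.5% of the last value present at 25%. The library listed at 0 decides the size: the 0% difference was 3.17 without replicate 3 of the day 3 controls and 7.71 without replicate 1, and the 25% difference 2.71 and 7.25. On day 6 the differences were 0.48 (SE 1.11), 1.47 and 1.49 (SE 1.24). The difference at 25% was 0.78 with library position as a covariate. This position is a place in repeated runs of 8 libraries in listing order, an assumed layout that the labels do not give. In the order of means the groups at 25% or less ran from 153 to 212 with overlap throughout, apart from the 50% group of day 6 (82.5) below them.

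SDK2 reached values near 0 on both days, at 0% on day 3 and already at 25% on day 6. The day 3 libraries held 221 and 281 normalized counts at 100%, 161, 281 and 231.5 at 50%, 90.2, 72.9 and 141 at 25%, 63.1, 44.1 and 47.0 at 12.5%, and 2.59, 19.4 and 0 at 0%. The day 6 libraries held 565, 622 and 436 at 100%, 369, 263 and 285.5 at 50%, 7.36, 18.3 and 22.0 at 25%, and 6.37 and 19.9 at 12.5%. From 50% to 0% on day 3 each level was below the one before with no overlap, whereas on day 6 the libraries at 25% and 12.5% overlapped.

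The SDK2 log2 differences on day 3 were -0.18 (SE 0.80), -1.35, -2.27 and -5.90 from 50% to 0%, so that 22.8% of the last value was present at 25% and 38.5% at 12.5%. On day 6 they were -0.82 (SE 0.71), -5.11 and -5.43 (SE 0.80), with 94.1% of the value at 12.5% already present at 25%. With library position as a covariate the day 3 difference at 25% was -0.81. At 25% the mean was 101 ± 35.2 (SD, n = 3) on day 3 and 15.9 ± 7.61 (n = 3) on day 6, where the controls were higher, 541 ± 95.2 (n = 3) against 251 ± 42.8 (n = 2). At 12.5% the means were 51.4 and 13.15, again without overlap between the days. In the order of means, 0% on day 3 (7.34), 12.5% on day 6 and 25% on day 6 overlapped, then 12.5%, 25% and 50% on day 3 were each apart from the group before, 50% and 100% on day 3 and 50% on day 6 overlapped, and 100% on day 6 stood apart at the top.

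TTLL7 was far lower in the cells without histidine than in any of the other 8 groups. On day 3 it stood at 137 and 125 normalized counts at 100%, 97.7, 152 and 172 at 50%, 172, 189.5 and 121.5 at 25%, 84.6, 55.7 and 119 at 12.5%, and 9.63, 0 and 0 at 0%. On day 6 it stood at 229, 179 and 188 at 100%, 101, 164 and 176.5 at 50%, 138, 111 and 98.2 at 25%, and 73.1 and 121 at 12.5%. The day 3 libraries at 100%, 50% and 25% overlapped, those at 12.5% lay below the controls by a small gap, and all 3 at 0% lay far below. On day 6 each restricted group lay below the 100% libraries, at 50% by only 179 against 176.5, and the restricted groups overlapped with each other.

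The TTLL7 log2 differences on day 3 were 0.06 (SE 0.68), 0.27, -0.66 and -5.91 from 50% to 0%; 11.2% of the last value was present at 12.5%, and the step from 12.5% to 0% was -5.25. With a pseudocount of 10 the difference at 0% was -3.49, since 2 of the 3 libraries are listed at 0. On day 6 the differences were -0.47 (SE 0.60), -0.78 and -1.06 (SE 0.68); the last lay between -1.42 and -0.705 when 1 library was left out (without replicate 2 or 1 of 12.5%). A group without histidine on day 6 was not analysed here, so the level at which TTLL7 was lowest has no counterpart. In the order of means the 0% group (3.21) stood apart and the other 8 groups, from 86.3 to 199, each overlapped with the next.

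**Figure D2:**
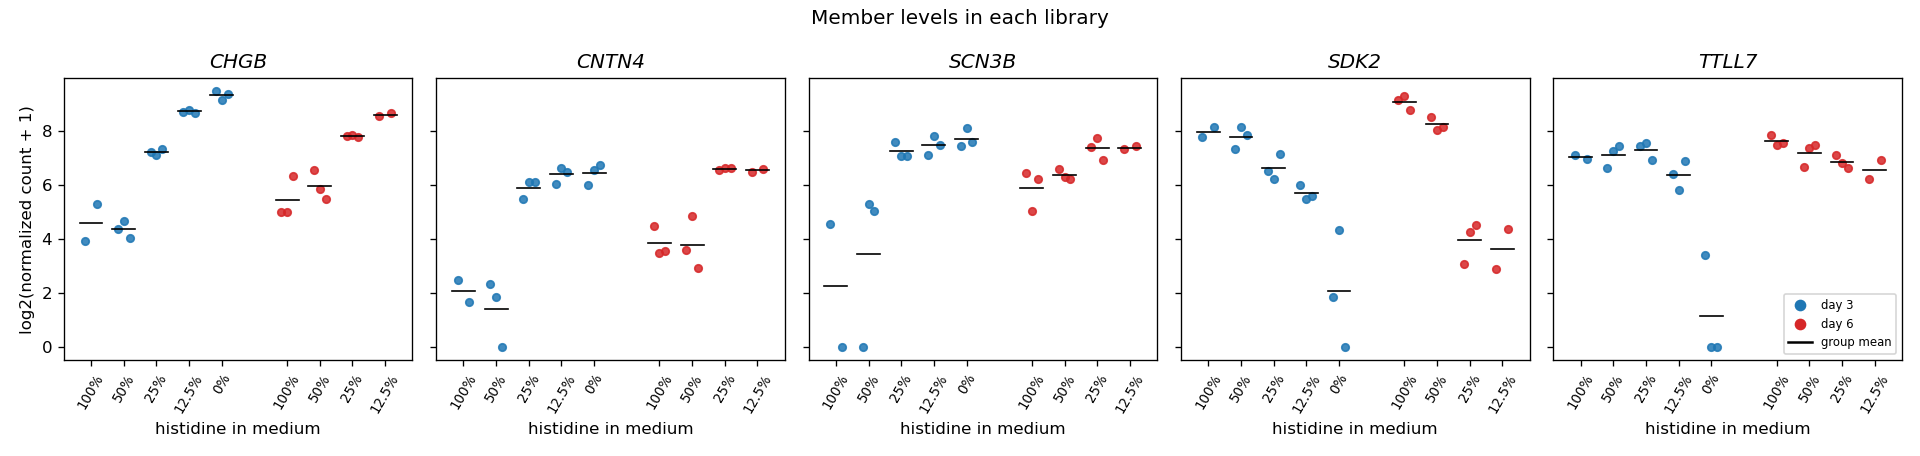
Level of each member in each of the 25 libraries (y axis, log2 of normalized count + 1; x axis, histidine in the medium; blue, day 3; red, day 6; black line, group mean). CHGB climbs at each step below 50%, CNTN4 and SCN3B reach their upper level at 25%, SDK2 reaches its low level at 0% on day 3 and at 25% on day 6, and TTLL7 drops at 0%.

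Counted over the members, the libraries of the restricted and the 100% group did not overlap for 0 of 5 genes at 50% on day 3, 4 of 5 at 25%, 5 of 5 at 12.5% and 5 of 5 at 0%. Over all 22994 tested genes the share without overlap, in either direction, was 19.4%, 44.2%, 48.6% and 50.5% in these comparisons. On day 6 it was 2 of 5 members at 50%, SDK2 and TTLL7, both lower, and 5 of 5 at 25% and at 12.5%, beside 10.5%, 33% and 49.5% of all genes. The members were chosen on these contrasts, so nothing is read from the counts.

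**Figure D3:**
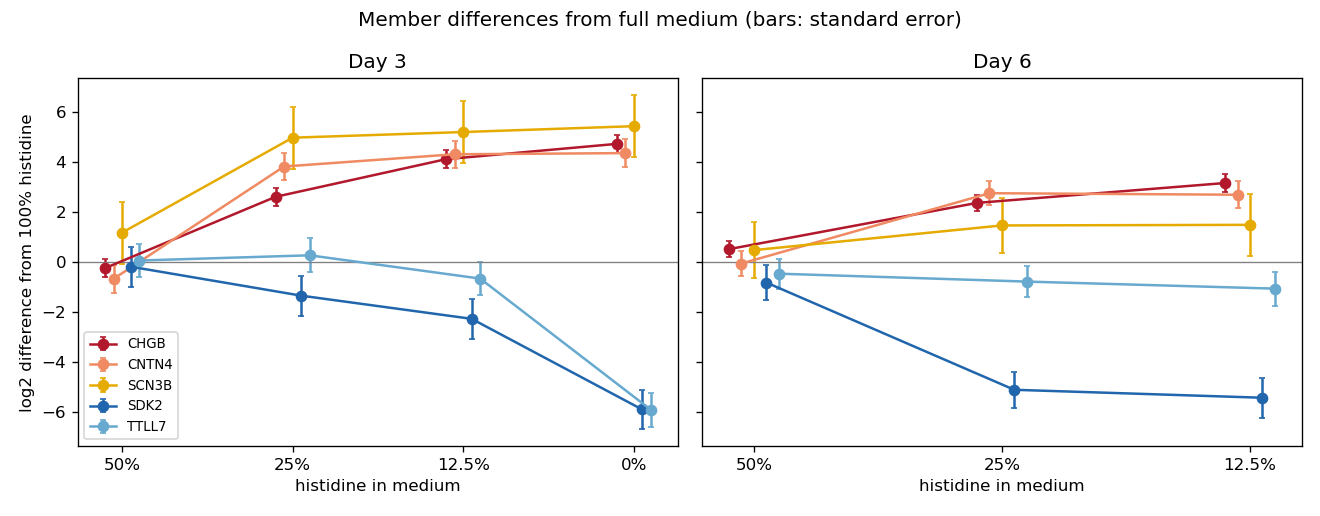
Difference of each member from 100% histidine (y axis, log2 scale; bars, standard error from the fit over all genes; x axis, histidine in the medium) on day 3 (left) and day 6 (right). At 50% all 5 members are within 1.18 of 0; SDK2 at 25% is at -1.35 on day 3 and -5.11 on day 6, and TTLL7 at 0% is at -5.91.

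In full medium the days can be compared too, but the choice of the members used the same control libraries, so their values are a description with no test. All 5 members had higher means on day 6 than on day 3 at 100% histidine, and for 4 of them the libraries did not overlap, where 37.6% of all tested genes did not overlap in either direction and 18% did so with higher values on day 6. CNTN4 had 14.2 ± 6.28 (SD, n = 3) on day 6 against 3.40 ± 1.76 (n = 2), a log2 difference of 1.77 (SE 0.55), or 1.65 with a replicate block. SCN3B differed by 3.63 (SE 1.24), which became 5.90 without replicate 1 of the day 3 controls and 1.36 without replicate 3. CHGB differed by 0.84 (SE 0.36), and by 1.51 without replicate 3 of day 3 and 0.16 without replicate 1. SDK2 differed by 1.10 (SE 0.80) and TTLL7 by 0.59 (SE 0.68). Scaling all libraries to the same total moved the median of all genes in this comparison from 0.02 to 0.134 and the share of higher genes among those called from 33.8% to 70%, and quantile normalization gave 51.7%, so directions over all genes here depend on the scaling.

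At equal histidine the days can be set side by side without a test. The share of all genes without overlap between the days was taken only at 100%, where it was 37.6%. It is not known for the levels below, so nothing is read from which members overlap there. At 50% CHGB, CNTN4 and SCN3B were higher on day 6 without overlap (3.25-fold, 6.78-fold and 3.52-fold by the means), and SDK2 and TTLL7 overlapped. At 25% CHGB and CNTN4 were higher on day 6 without overlap (1.51-fold and 1.61-fold by the means), SCN3B and TTLL7 overlapped, and SDK2 was 6.37-fold lower on day 6. At 12.5% CHGB was lower on day 6 (389 against 423) without overlap, SDK2 3.91-fold lower, and the other 3 overlapped.

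Relatives and partners of the members, REST complex genes and neuronal, neuroendocrine, glial and T-cell genes were taken from lists. These hold 159 genes without the members, of which 123 were tested. The counts in this paragraph are over all the lists together, T-cell markers included, and are not shares of relatives and partners alone. At 0% on day 3, 18 list genes were higher and 31 lower by limma at an adjusted p under 0.05, 39.8% against 31% of all tested genes, with a median log2 difference of -0.185 against -0.0162 over all genes. At 12.5% on day 6, 16 were higher and 24 lower, 32.5% against 21.9%, with a median of 0.0295 against -0.00371. At 50% none of the list genes passed on either day by limma, and over all genes 0 (0%) and 1 (0.00435%) passed. An unadjusted limma p under 0.05 was found for 4 (day 3) and 8 (day 6) of the 123 list genes. Over all 22994 tested genes it was found for 1075 and 1098. In the other comparisons 36 list genes passed at 25% and 42 at 12.5% on day 3, beside 19.5% and 26.2% of all genes, 40 at 25% on day 6, beside 20.2%, and 8 between the days at 100%, beside 8.66%. Between the days 3 of the 8 were higher and 5 lower, a balance that scaling to the same total turned to 10 higher and 3 lower.

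Of 9 tested genes of secretory granules, none was higher and 1 lower at 0% on day 3 by limma (11.1%, against 31% of all genes), and 1 was higher and 1 lower at 12.5% on day 6 (22.2%, against 21.9%). The medians were -0.516 and 0.829. PTPRN2, a phosphatase-like protein of the granule membrane, fell from 495 ± 38.6 (SD, n = 2) to 345 ± 6.22 normalized counts (n = 3) at 0% on day 3 (log2 difference -0.52, SE 0.12, limma adjusted p = 0.00198) and by 0.93 at 12.5% on day 6 (limma adjusted p = 2.69e-06). SCG2, another granin, was higher by 2.36 at 12.5% on day 6 (13.9 to 51.75, limma adjusted p = 0.0378), a call lost without any of 4 of the 5 libraries, where the limma adjusted p ranged from 0.063 to 0.219. CHGA, another granin, had a median of 3.92 normalized counts over the 25 libraries. At 25% on day 3 it was listed at 0 in all 3 libraries against 15.9 ± 19.0 (SD, n = 2) at 100% (limma adjusted p = 0.0302), a call lost without replicate 3 of the controls (0.492), without any 1 of the 3 libraries at 25% (0.0605 to 0.0618), with a pseudocount of 10 (0.0627) and with library position as a covariate (0.698).

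Among the contactins and their partners, 1 of 9 tested genes was higher and 2 lower at 0% on day 3 by limma. That was 33.3%, against 31% of all genes, and the median was 0.015. PTPRG, the receptor phosphatase that contactins bind, rose from 240 ± 68.6 (SD, n = 2) to 564 ± 78.6 (n = 3), a log2 difference of 1.25 (SE 0.19, limma adjusted p = 5.91e-06). At 12.5% on day 6 it was higher by 0.54 (limma adjusted p = 0.0382), a call lost without replicate 2 (0.13) or 3 (0.0765) of the day 6 controls or without replicate 1 (0.119) or 2 (0.207) of 12.5%. APP, the amyloid precursor protein, fell by 0.36 and by 0.44 in these comparisons (limma adjusted p = 0.000817 and 0.000157), and NRCAM, an adhesion protein of the L1 family, fell by 2.09 at 0% on day 3 (81.1 to 20.15, limma adjusted p = 2.82e-05). At 12.5% on day 6 the list had 1 higher and 1 lower gene of 9 (22.2%, against 21.9% of all genes). The median there was -0.205.

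The sodium channel genes showed both directions. At 0% on day 3, 1 was higher and 2 lower of 9 (33.3%, against 31% of all genes, median 0.105). At 12.5% on day 6, 2 were higher and 1 lower (33.3%, against 21.9%, median -0.1). SCN3A, a pore-forming alpha subunit, rose from 420 ± 26.2 (SD, n = 2) to 686 ± 107 (n = 3) at 0% on day 3 (log2 difference 0.69, limma adjusted p = 0.000356) and by 0.49 at 12.5% on day 6 (limma adjusted p = 0.0132; 0.168 without replicate 1 of 12.5%). SCN4A, the alpha subunit of skeletal muscle, fell by 1.51 at 12.5% on day 6 (limma adjusted p = 0.00156). On day 3 SCN4A was lower by 1.06 (limma adjusted p = 0.0178), a call lost without replicate 1 (0.0677) or 3 (0.106) of the controls or replicate 3 of 0% (0.0522). SCN8A, another alpha subunit, was higher by 0.38 at 12.5% on day 6 (limma adjusted p = 0.0356; 0.0785 to 0.171 without replicate 1 or 2 of either group).

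In the adhesion list around SDK2, 5 of 16 genes passed at 0% on day 3, all lower (31.2%, against 31% of all genes, median -0.39). At 12.5% on day 6, 6 of 16 passed, all lower (37.5%, against 21.9%, median -0.342). At 25% on day 3, 1 gene of this list, CADM2, passed as higher and 2 as lower. SDK1, the paralogue of SDK2, was lower by 1.30 at 0% on day 3 (54.0 to 22.3, limma adjusted p = 0.00247; 0.0666 without replicate 1 of the controls) and by 1.20 at 12.5% on day 6 (95.4 to 40.25, limma adjusted p = 0.00729; 0.0722 without replicate 2 of 12.5%). MAGI1, a scaffold protein with PDZ domains of the kind sidekicks bind, fell by 1.12 at 0% on day 3 (limma adjusted p = 4.53e-08), and by 0.47 at 12.5% on day 6 (limma adjusted p = 0.00518; 0.105 without replicate 1 of 12.5%). MAGI3, its relative, fell by 0.97 at 0% on day 3 (limma adjusted p = 1.48e-05). NLGN2, a neuroligin of inhibitory synapses, fell by 0.69 and by 0.59 (limma adjusted p = 1.26e-06 and 2.35e-05). CADM1, an adhesion protein, fell by 0.51 at 12.5% on day 6 (limma adjusted p = 0.000929), and DSCAML1, a relative of the sidekicks in structure, was lower by 1.06 there (limma adjusted p = 0.00137; 0.141 without replicate 2 of 12.5%).

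Of the tubulin-modifying enzymes, 4 were higher and 9 lower out of 20 at 0% on day 3 (65%, against 31% of all genes, median -0.281). At 12.5% on day 6, 2 were higher and 4 lower (30%, against 21.9%, median -0.143). TTLL3, a tubulin glycylase, rose from 462 ± 61.9 (SD, n = 2) to 1511 ± 306 (n = 3) at 0% on day 3 (log2 difference 1.69, limma adjusted p = 1.61e-08) and by 0.84 at 12.5% on day 6 (limma adjusted p = 0.000502), the direction opposite to TTLL7. TTLL12 fell by 0.82 at 12.5% on day 6 (limma adjusted p = 8.6e-08), and by 0.40 at 0% on day 3 (limma adjusted p = 0.000727; 0.0845 without replicate 3 of the controls). VASH1, a tubulin tyrosine carboxypeptidase, fell by 1.04 and by 0.64 (limma adjusted p = 6.85e-09 and 3.03e-05), while its small partner SVBP rose by 0.94 at 0% on day 3 (limma adjusted p = 1.62e-07) and by 0.41 at 12.5% on day 6 (limma adjusted p = 0.00799; 0.0508 and 0.0715 without replicate 1 or 2 of 12.5%). AGBL5, a deglutamylase that removes the branch point glutamate, fell by 0.94 and by 0.49 (limma adjusted p = 5.35e-08 and 0.000794).

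REST itself did not pass in any of the 8 comparisons; its log2 difference was 0.00 at 0% on day 3 and 0.21 at 12.5% on day 6 (limma adjusted p = 0.34). Of 15 genes of the REST complex, 3 were higher and 4 lower at 0% on day 3 (46.7%, against 31% of all genes, median 0.0564). At 12.5% on day 6, 5 were higher and 2 lower (46.7%, against 21.9%, median 0.158). KDM1A, a histone demethylase of the complex, fell by 0.51 at 0% on day 3 (7715 to 5416, limma adjusted p = 5.41e-07) and by 0.25 at 12.5% on day 6 (limma adjusted p = 0.00567; 0.064 without replicate 1 of 12.5%). RCOR1, the corepressor CoREST, was lower by 0.32 at 0% on day 3 (limma adjusted p = 0.00123; 0.0841 with library position as a covariate) and rose by 0.30 at 12.5% on day 6 (limma adjusted p = 0.00321). EHMT1, a histone methyltransferase, rose by 0.29 and by 0.41 (limma adjusted p = 0.00376 and 0.000151), SIN3B by 0.39 at 0% on day 3 (limma adjusted p = 0.000841; 0.0577 with library position as a covariate) and HDAC1 by 0.24 at 12.5% on day 6 (limma adjusted p = 0.000423).

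Of 20 tested neuronal markers, 2 were higher and 3 lower at 0% on day 3 (25%, against 31% of all genes, median -0.276). At 12.5% on day 6, 1 was higher and 2 lower (15%, against 21.9%, median 0.362). SYN2, a synapsin of synaptic vesicles, fell by 3.195 at 0% on day 3 (112 to 11.8, limma adjusted p = 3.58e-09) and by 2.06 at 12.5% on day 6 (limma adjusted p = 1.02e-05). ENO2, the neuron-type enolase, fell by 0.67 at 0% on day 3 (limma adjusted p = 4.72e-09), and STMN3, a microtubule regulator, fell by 0.33 at 12.5% on day 6 (limma adjusted p = 0.00293). INA, a neurofilament protein, rose by 0.82 at 0% on day 3 (limma adjusted p = 5.59e-06), and SYP, a vesicle protein, rose by 0.99 there (limma adjusted p = 6.89e-05). At 12.5% on day 6 SYP was higher by 0.49 (limma adjusted p = 0.0489; 0.0608 to 0.385 without replicate 1 or 2 of either group).

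Summed over all 24 neuronal markers, the level lay between 5209 and 7233 normalized counts in every library, lowest at 0% on day 3 (5209 to 5669 against 6395 to 7006 at 100%). ENO2 (median 2991) and STMN3 (median 1836) make up most of this sum, which therefore mainly follows them, and SYT4 and CELF4 had medians of 0. The sum of the 12 neuroendocrine factors was 417 to 452 at 0% on day 3 against 752 to 832 at 100%; NEUROD1, NEUROD2, ISL1 and ST18 had medians of 0. Of 7 such factors tested, 1 was higher and 3 lower at 0% on day 3 (57.1%, against 31% of all genes, median -0.527). At 12.5% on day 6, 1 was higher and 2 lower (42.9%, against 21.9%, median -0.518). POU3F2, a POU domain factor, fell by 2.48 and by 1.14 (limma adjusted p = 3.39e-09 and 0.000628), MYT1 by 2.07 at 0% on day 3 (limma adjusted p = 8.59e-06) and NEUROG2 by 1.08 at 12.5% on day 6 (limma adjusted p = 0.000287). INSM1, a zinc finger factor of neuroendocrine cells, was higher by 2.98 at 0% on day 3 (5.01 to 35.9, limma adjusted p = 0.000977; 0.0878 without replicate 3 of the controls). PAX6 was lower by 0.69 at 0% on day 3 (limma adjusted p = 0.005; 0.148 with library position as a covariate) and rose by 0.89 at 12.5% on day 6 (limma adjusted p = 0.000722).

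None of 6 tested glial markers passed at 0% on day 3 or at 12.5% on day 6 by limma. Of all genes 31% and 21.9% passed there. At 25% on day 3, 1 glial marker was lower (16.7%, against 19.5% of all genes). At 12.5% on day 3, 2 were lower (33.3%, against 26.2%), and at 25% on day 6, 1 was lower (16.7%, against 20.2%). MBP, a myelin protein also made outside glia, was among them each time, lower by 0.37, 0.53 and 0.35 (limma adjusted p = 0.0161, 0.0005 and 0.0101). The MBP call at 25% is lost on day 3 without replicate 1 (0.0547) or 3 (0.14) of the controls or replicate 1 of 25% (0.0581), with the same total per library (0.0537) or with library position as a covariate (0.111), and on day 6 without replicate 2 of the controls (0.0758). MBP ran from 1508 to 2779 normalized counts, S100B from 37.2 to 67.9 and ALDH1L1 from 9.01 to 114 over the 25 libraries, none at 0, and GFAP had a median of 0. Of 12 T-cell markers, 6 were higher and 2 lower at 0% on day 3 (66.7%, against 31% of all genes, median 0.314). The higher ones included CD3E (15880 to 29500, limma adjusted p = 2.36e-14), LCK and CD3D. The lower ones were CD5 and CD2, whose call is lost with library position as a covariate (limma adjusted p = 0.0888). At 12.5% on day 6, 3 were higher and 5 lower (66.7%, against 21.9%, median -0.0834). The sum of the T-cell markers was 73320 to 76620 normalized counts at 0% on day 3 against 47840 to 52950 at 100%. CD3E (median 19070) and LCK (median 13340) make up most of this sum, which therefore mainly follows them. The sums of 6 fibroblast markers (1733 to 12260) and 4 erythroid markers (191 to 5041) differed by several-fold between libraries of 1 group. The part of these levels in the members' differences was not tested.

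**Figure D4:**
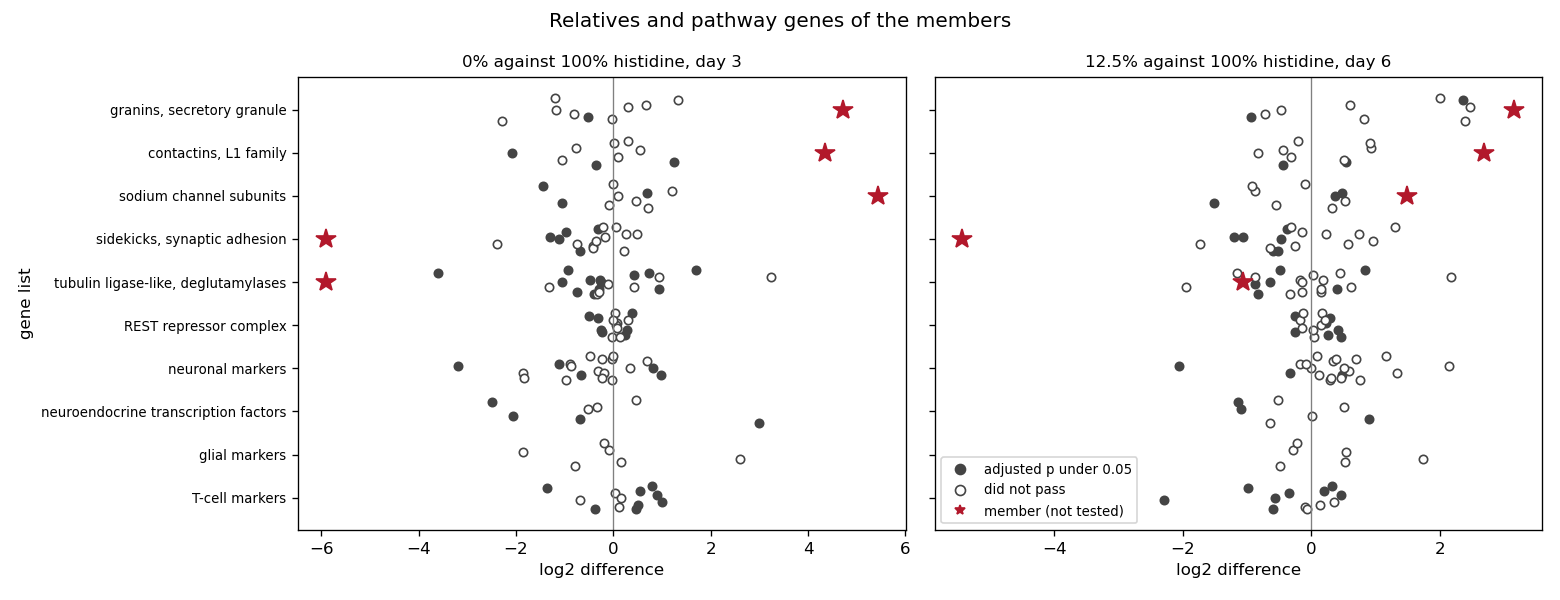
Log2 difference (x axis) of each tested list gene at 0% on day 3 (left) and 12.5% on day 6 (right), by list (y axis); filled circles passed at an adjusted p under 0.05, open circles did not, and red stars are the members, which were not tested. At 0% on day 3 the 5 members lie at -5.91, -5.90, 4.36, 4.73 and 5.44; at 12.5% on day 6 TTLL7 lies at -1.06, among its relatives.

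The genes beside the members on the chromosome were looked up as well. At 0% on day 3 TRMT6, a transfer RNA methyltransferase gene 11874 bases from CHGB, rose by 0.44 (1054 to 1433, limma adjusted p = 0.000548), and SHLD1 on the other side did not pass (0.34, limma adjusted p = 0.332). TRNT1, which encodes the enzyme that adds CCA to transfer RNA, 68960 bases from CNTN4, was higher by 0.38 (limma adjusted p = 0.00922; 0.129 without replicate 3 of the controls). GRAMD1B, whose end lies 1413 bases from that of SCN3B, was at -0.65 (limma adjusted p = 0.0746), and ZNF202 on the other side rose by 0.54 (limma adjusted p = 0.000866). CDC42EP4, 22209 bases from SDK2, fell by 1.38 (96.4 to 36.9, limma adjusted p = 0.000111), and RPL38 did not pass (-0.08, limma adjusted p = 0.63). TTLL7-IT1, a transcript within an intron of TTLL7 on the same strand, did not pass (9.47 against 7.69, log2 difference 0.88, limma adjusted p = 0.524), nor did ADGRL2 (-1.04, limma adjusted p = 0.223) or PRKACB (0.02, limma adjusted p = 0.923).

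At 12.5% on day 6, 2 of these neighbours passed: RPL38, a ribosomal protein gene, fell by 0.45 (limma adjusted p = 0.00159) and TRMT6 was higher by 0.26 (limma adjusted p = 0.0456; 0.127 to 0.223 without replicate 1 or 3 of the controls or either library of 12.5%). CDC42EP4 was at 0.31 (limma adjusted p = 0.465), while SDK2 was at -5.43.

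The genes most like each member were ranked by Pearson's r of log2(value + 1) over the 25 libraries, among 12125 genes with a mean of at least 50 in some group. For CHGB they were RASAL3 (r = 0.978), CCDC97 (0.97), RCC2 (0.969) and RNF145 (0.964). RASAL3, which encodes a Ras GTPase-activating protein of blood cells, had means of 863, 1840, 2950 and 3848 at 100%, 25%, 12.5% and 0% on day 3. For CNTN4 they were RAB6A (0.958), RBM18 (0.957), ZHX2 (0.951) and DMGDH (0.947). DMGDH, a mitochondrial dehydrogenase of choline breakdown, had 55.9, 340.5, 303.5 and 280.5 at these levels.

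For SCN3B the most alike were PTPRG (r = 0.912), IRF7 (0.884), GAB2 (0.876) and DBET (0.869). PTPRG stands in the contactin list too, and its day 3 means were 240, 427, 522 and 564. For SDK2 they were SOX13 (0.921), SEMA4A (0.919), NKD2 (0.919) and JCAD (0.916); NKD2, an inhibitor of Wnt signalling, went from 1026 at 100% to 128 at 0% on day 3 and from 961 to 180 at 12.5% on day 6. For TTLL7 they were SESTD1 (0.945), MRC2 (0.928), EME1 (0.919) and GJC1 (0.917); EME1, a subunit of a DNA nuclease, had 748, 799 and 706 at 100%, 25% and 12.5% and 198 at 0% on day 3. All these r values share the 25 libraries and their scaling and describe them only.

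**Figure D5:**
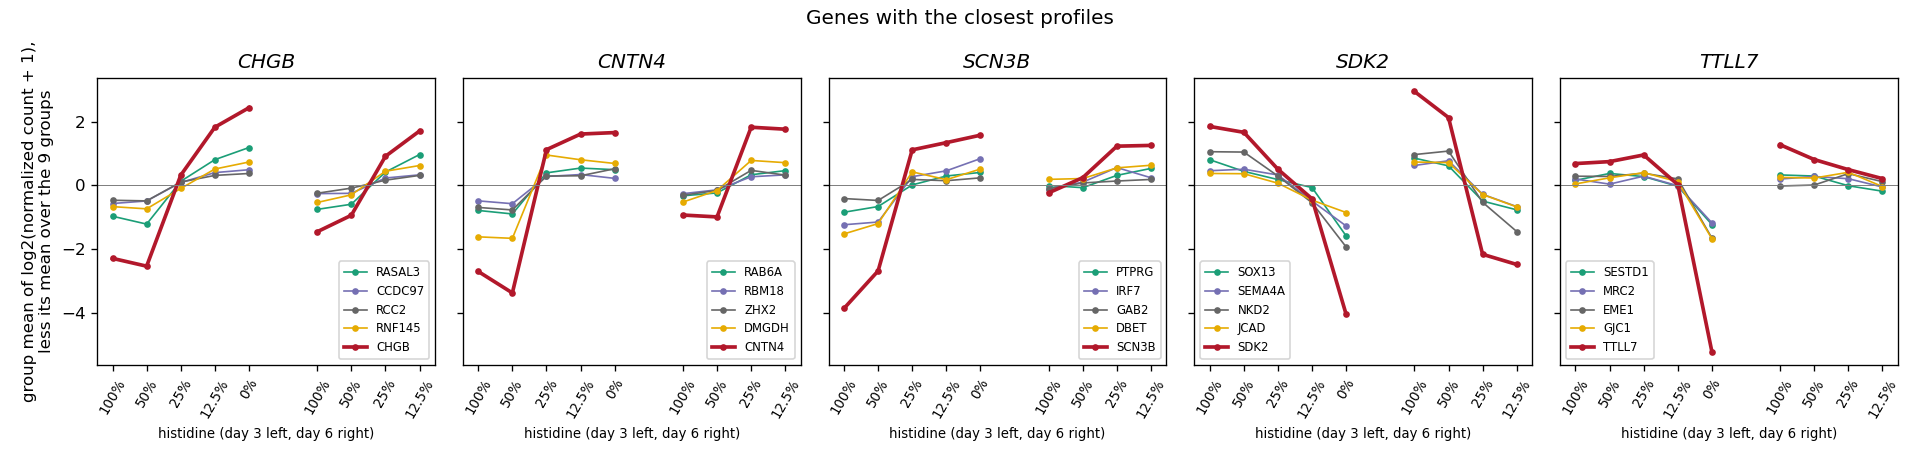
Group means of log2(normalized count + 1), less the gene's own mean over the 9 groups (y axis), along the histidine levels of day 3 (left) and day 6 (right) for each member (thick red) and the 4 genes with the highest r (thin). All genes of the TTLL7 panel are lowest at 0% on day 3. On day 6 TTLL7 and SESTD1 fall at each step, while MRC2, EME1 and GJC1 do not.

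Among the members, r was 0.892 for CHGB with CNTN4, 0.74 for CNTN4 with SCN3B, 0.697 for CHGB with SCN3B, 0.671 for SDK2 with TTLL7 and -0.809 for CHGB with SDK2, over 25 libraries that fall into groups by histidine. The lowest in size was SCN3B with TTLL7, -0.272. Spearman's rho was -0.521 for SCN3B with TTLL7 and 0.886 for CHGB with SCN3B. The members were chosen for rises or falls across these same groups, so nothing is read from the signs or sizes.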

How the data were processed

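The data are 25 RNA-seq libraries of Jurkat cells. Per the labels' protocols, total RNA was used for strand-specific Illumina libraries. The submitters' processing notes name GRCh38 as the build and kallisto 0.50.1, DESeq2 1.44.0 and FastQC 0.11.9 as software. Neither annotation nor strand setting is given in the sources used here. The authors deposited normalized counts, a signal scaled between libraries, for 36755 genes. Between 40.9% and 75.4% of a library's low values (up to 20 reads) came within 0.05 of a whole multiple of 1 read. Reads were thus not recovered, no count test was used and counting error has no interval. Identical library pairs numbered 0.

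Groups came from the labels. A mean per group was fitted to log2(value + 1) over all 25 libraries with limma 3.58.1 in R 4.3.3 (trend and robust moderation), for 22994 genes with at least 10 in at least 2 libraries, with Benjamini-Hochberg adjustment in each of 8 comparisons and a threshold of 0.05. Differences on this scale understate those of low genes. The SE of a gene draws on its spread in all 9 groups, so libraries near 0 in 1 group can widen it in every comparison. The fit was tried on simulated log values with independent normal spread, where only genes of higher mean were changed. That trial says nothing of calls on values near 0. Same-numbered replicates were compared in 18 pairs, each with a 100% library. The correlation of their deviations was -0.0513 to 0.192, and 1 was over 0.1. That pair, replicate 3 of 50% and of 100% on day 6, held the most genes at 10 or more (19624 and 19484). Pairs without a 100% library were not examined.

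The members and lists were chosen with earlier results of these data known. The day contrast of the members, planned as a test, is given without one because their choice used the same control libraries. Named genes are the members, up to 4 called genes with the smallest p per list in the comparisons of 0% on day 3 and 12.5% on day 6, up to 3 T-cell markers, the 4 genes with the highest r per member, overlapping genes and the nearest tested coding gene on each side. CHGA, REST, MBP, S100B, ALDH1L1 and the marker genes at or near 0 were named after their values were seen. Lists cover granins, contactins, sodium channels, sidekicks and adhesion proteins, tubulin ligase-like enzymes, the REST complex, and neuronal, neuroendocrine, glial and T-cell genes, with fibroblast and erythroid markers as sums. Coding frames and spans are from GENCODE 29, and 23266 table names matched it. Motifs and codon counts were chosen after the table had been seen. Other pseudocounts, filters, scalings, covariates and left-out libraries were tried. Library position means the place of a library in repeated runs of 8, in the order in which the series lists them. The labels name no such layout or batch, so this covariate is an assumed grouping. Python 3.11.15 and pandas 2.3.3 were used. Some named genes are not reported here.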

Additional observations from a re-analysis of the deposited data

Results flagged for a closer look

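INA, the neurofilament gene, was higher in every library at 25% histidine than in the controls on day 3 (317 against 254 normalized counts) and lower in every library at 25% on day 6 (282 against 325). Neither passed by limma (adjusted p = 0.067 and 0.22). The days' differences were -0.52 apart on the log2 scale, day 6 minus day 3, which was not tested.

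CDC42EP4, the neighbour of SDK2, was lower in every library at 12.5% histidine than in the controls on day 3 (72.9 against 96.4) and higher in every library at 12.5% on day 6 (74.3 against 59.0). Neither passed by limma (adjusted p = 0.283 and 0.465). The days' differences were 0.71 apart on the log2 scale, day 6 minus day 3, which was not tested.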

How the results depend on the processing

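No called difference of a single named gene changed sign under a setting that was tried, but calls were lost. With all libraries kept, calls of named list and neighbour genes were lost 79 times and held 1280 times. At 12.5% on day 6 the limma adjusted p of SYP was 0.0901 with no filter, 0.0596 with the same total and 0.062 with the replicate block. There SCG2 had 0.0503 with no filter, TRMT6 0.0752 with the replicate block and SCN8A 0.0689 with the same total. Differences of members at 50%, which lay near 0, changed sign in some settings. The balance of higher and lower calls between the days turned with the scaling. With library position as a covariate the log2 differences from 100% became 5.58 (0%), 3.63 (25%) and 0.42 (50%) for CHGB on day 3, 4.92 for CNTN4 at 0% on day 3, 0.78 (25%) and 1.59 (50%) for SCN3B on day 6, -0.81 for SDK2 at 25% on day 3, 0.59 (25%) and -0.81 (50%) for TTLL7 on day 3 and -1.43 for TTLL7 at 50% on day 6. In that fit 4725 genes passed at 0% and 2350 at 25% on day 3 (7123 and 4490 without it), 3012 at 25% and 0 at 50% on day 6 (4645 and 1) and 720 between the days (1991), and of the list genes 22 at 25% on day 3 (36) and 4 between the days (8). A pseudocount of 10 gave 2.84, 2.80 and 2.37 for CNTN4 at 0%, 12.5% and 25% on day 3 and 2.11 and 2.17 at 12.5% and 25% on day 6, -4.07, -4.62 and -4.44 for SDK2 at 0% on day 3 and at 12.5% and 25% on day 6, and -3.49 for TTLL7 at 0% on day 3. A fit of the 2 compared groups alone passed 5 genes at 50% on day 3 and 8 on day 6. Between the days 3 list genes were higher and 5 lower; scaling to the same total gave 13 list genes, 10 higher and 3 lower, and quantile normalization 8 higher and 4 lower, with 70% and 51.7% of all called genes higher against 33.8%. For the day difference at 100%, given without a test, CNTN4 (1.77) stood at 1.91 and 0.83 with a pseudocount of 0.5 or 10. It stood at 1.77 with no filter, 1.53 with quantile normalization, 1.76 with library position, 1.65 with the replicate block and 1.77 with only the compared groups. CHGB stood at 1.65 with library position and SCN3B at 1.95 with a pseudocount of 10. SDK2 stood at 1.10 with only the compared groups, where its SE was 0.17 rather than 0.80.

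Leaving out 1 library at a time gave ranges, on day 3, of 4.05 to 5.40 (0%), 3.44 to 4.79 (12.5%), 1.94 to 3.28 (25%) and -0.92 to 0.43 (50%) for CHGB, and of 3.17 to 7.71, 2.93 to 7.47 and 2.71 to 7.25 (0%, 12.5%, 25%) for SCN3B, with the ends set by the 2 controls of day 3. On day 6 at 12.5% the ranges were -6.19 to -4.68 for SDK2 and -1.42 to -0.705 for TTLL7. The day difference ranged from 0.16 to 1.51 for CHGB, 1.35 to 2.19 for CNTN4 and 1.36 to 5.90 for SCN3B. Genes that passed numbered 2954 to 3934 at 25% and 0 to 5 at 50% on day 3, 3181 to 4418 at 12.5% and 0 to 17 at 50% on day 6, and 588 to 1875 between the days; list genes 17 to 29 at 25% on day 3 and 1 to 12 between the days. Where 1 control library was left, it was assumed to vary like the other groups. The cause of these shifts was not tested, and the unknown depth limits what the low values can show.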
